A study of Homo sapiens with 6 samples.

Results

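The 39 protein-coding HOX genes were followed in RNA-seq of 2 related lines. KYSE70 is an established line of human esophageal squamous carcinoma with a mutant NFE2L2, the gene of the transcription factor NRF2, and NRF2null-KYSE70 is a clonal line derived from it by CRISPR-Cas9 disruption of that gene. Members were taken by symbol alone, as every row named HOXA, HOXB, HOXC or HOXD followed by a number, with no use of their values. They were 39 of the 58884 genes in the table and comprised 11 HOXA, 10 HOXB, 9 HOXC and 9 HOXD genes. Antisense and other non-coding genes of the clusters were not members and are described further on. Both lines were grown without treatment and each gave 3 libraries, numbered here as they stand in the table. NRF2null-KYSE70 is 1 clone, so every difference given here sets that clone against the line it came from. The labels call the libraries replicates without naming separate cultures, so the p-values measure only the spread between these libraries, which may be technical.

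HOX genes encode homeodomain transcription factors and lie in tight clusters in which gene order follows the order of expression along the head-to-tail axis of the embryo. Genes with the same number in different clusters are paralogues: low numbers mark the anterior, early and retinoic acid-responsive end, high numbers the posterior end. Adult epithelia keep part of this positional code, Polycomb and Trithorax complexes hold clusters silent or active, and TALE homeodomain proteins of the PBX, MEIS and PKNOX families bind DNA with HOX proteins.

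The libraries held between 52072801 and 63975313 reads, recovered from the deposited normalized counts. All 8 squamous epithelial markers were expressed in both lines, and by the adjusted p 5 were higher (KRT6A, KRT17, SOX2, CDH1 and EPCAM) and 3 lower (KRT5, TP63 and DSG3) in NRF2null-KYSE70. Their summed normalized count, mostly KRT5, was 330016 to 337494 in KYSE70 and 256784 to 269222 in NRF2null-KYSE70. Of 6 fibroblast markers 2 had a mean of at least 10 and COL1A2 and DCN were at 0, with sums of 1384 to 1618 in KYSE70 and 471 to 622 in NRF2null-KYSE70. Of 3 endothelial markers 1 passed that level (sums of 133 to 149 and 275 to 450.3), as did 1 of 3 blood cell markers (0 to 4.22 and 40.2 to 47.9). The part of these differences in the HOX results was not tested. In bulk RNA, fewer cells that express a gene and less of its RNA per cell cannot be told apart. NFE2L2 itself fell from 9928 ± 102 to 6093 ± 319 normalized counts (SD, n = 3), or to 61.4% of the KYSE70 level (log2 fold change −0.71, limma, adjusted p = 9.37e-08), and its transcript therefore remained present in the clone.

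Before the values, the stretches around the starts of 3 members are shown, since they are the promoter windows, among those in the RefSeq table, of members that were lower in the clone by the adjusted p, namely HOXA6, HOXA13 and HOXC4. Each runs from 250 bases before the start of the gene to 50 after it on the gene's own strand (GRCh38.p14, 300 bases), at chr7:27147725-27148024 (minus strand) for HOXA6, chr7:27200042-27200341 (minus strand) for HOXA13 and chr12:54016638-54016937 (plus strand) for HOXC4. Capitals mark CCAAT, the NF-Y box, on either strand and, in HOXA6, TGACNNNGC, the core of the antioxidant response element to which NRF2 binds as a dimer with small MAF proteins.
HOXA6: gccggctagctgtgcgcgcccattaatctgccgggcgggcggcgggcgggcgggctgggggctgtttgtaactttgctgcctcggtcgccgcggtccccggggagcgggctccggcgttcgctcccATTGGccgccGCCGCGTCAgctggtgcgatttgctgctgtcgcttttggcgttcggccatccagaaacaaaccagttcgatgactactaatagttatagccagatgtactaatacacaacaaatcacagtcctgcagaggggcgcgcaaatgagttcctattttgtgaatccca
HOXA13: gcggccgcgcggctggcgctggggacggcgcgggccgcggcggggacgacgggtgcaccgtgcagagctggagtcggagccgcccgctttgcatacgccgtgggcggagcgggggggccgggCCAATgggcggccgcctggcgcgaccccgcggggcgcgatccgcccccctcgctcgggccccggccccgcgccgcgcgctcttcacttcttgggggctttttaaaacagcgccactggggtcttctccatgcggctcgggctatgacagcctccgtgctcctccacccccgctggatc
HOXC4: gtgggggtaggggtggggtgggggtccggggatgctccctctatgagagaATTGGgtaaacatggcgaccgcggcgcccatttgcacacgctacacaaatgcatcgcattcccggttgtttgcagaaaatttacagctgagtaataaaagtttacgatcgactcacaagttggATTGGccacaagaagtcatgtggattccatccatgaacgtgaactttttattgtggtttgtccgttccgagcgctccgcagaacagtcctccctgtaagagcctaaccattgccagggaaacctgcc
The HOXA6 window held the antioxidant response element core on the strand opposite to that printed, at −114 from the start, and 1 NF-Y box. HOXA13 held 1 NF-Y box, and HOXC4 held 2. The HOXC5 window was identical to that of HOXC4, because RefSeq gives the genes the same start.

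RefSeq windows were matched by symbol for 20 of the 39 members, with the identical windows of HOXC4 and HOXC5 counted separately. The antioxidant response element core, searched on both strands, was in 3 of them (HOXA6, HOXD4 and HOXD11) and in 13.6% of all 27305 windows of the same length. The NF-Y box was in 17 of the 20 HOX windows and in 35.7% of all windows. TATAAA was in 4 (HOXA3, HOXA9, HOXA10 and HOXD13) against 11.95%, and TGATTNAT, a site bound by HOX and PBX proteins together, in 2 (HOXA2 and HOXD11) against 2.94%. A direct repeat of AGGTCA spaced by 5 bases, an exact form of a retinoic acid receptor site, was in none of the 20 and in 1 window of all. With matches this rare, its absence cannot set the HOX windows apart from others. HOX windows held a median of 22.5 CpG dinucleotides against 14 over all windows, at a median GC content of 58.0% against 58.3%. These are matches of letters within the window, not sites of binding. Members outside the table included HOXA5, HOXB2, HOXB3, HOXB4, HOXB5, HOXB6, HOXB7, HOXB8, HOXB9, HOXB13, HOXC6, HOXC8, HOXC9, HOXC10, HOXC11, HOXC12, HOXC13 and HOXD9.

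The squamous carcinoma line expressed a broad but patchy set of HOX genes. Of the 39 members 24 averaged 10 normalized counts or more across the 6 libraries and were tested: 9 of 11 HOXA, 5 of 10 HOXB, 7 of 9 HOXC and 3 of 9 HOXD genes. HOXB was active as a posterior block: HOXB6, HOXB7, HOXB8, HOXB9 and HOXB13 were tested, whereas HOXB1 to HOXB5 were below the limit, with HOXB2 and HOXB4 at 0 in all libraries. In HOXD the tested genes were HOXD8, HOXD10 and HOXD11, while HOXD3, HOXD4 and HOXD12 were at 0 and HOXD1, HOXD9 and HOXD13 were below the limit with some reads. In HOXC the genes HOXC5 and HOXC12 were below the limit, the latter at 0, and in HOXA only HOXA7 and HOXA10 were.

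Adding to those 6 silent genes, HOXB1 and HOXC5 had at most 3 reads in every library (1 read in NRF2null-KYSE70 and 2 in KYSE70 in all), so both were at the floor of detection. The other 7 members below the limit had over 3 reads in some library, with summed reads in KYSE70 and NRF2null-KYSE70 of 7 and 9 for HOXA10, 4 and 6 for HOXB3, 13 and 9 for HOXB5, 4 and 8 for HOXD1, 4 and 3 for HOXD9, and 36 and 20 for HOXD13. HOXA7, a mid-cluster gene, held 6 reads in KYSE70 and 39 in NRF2null-KYSE70. Its normalized counts were 0, 0 and 6.33 in KYSE70 and 11.2, 18.6 and 10.3 in NRF2null-KYSE70. All NRF2null-KYSE70 libraries lay above all KYSE70 libraries for HOXA7, which was not tested. Of its exon bases, 62.5% are shared with HOXA-AS3 on the opposite strand. Since no source used here gives the strand setting, the division of reads between such pairs is uncertain. HOXD13 lay just below the limit at a mean of 8.91, and HOXA2 just above it at 13.8.

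Levels between genes were compared as normalized counts per kilobase of exon, the scale that allows for transcript length. In KYSE70 the highest levels per kilobase were those of HOXB7, at 1293 ± 78.9, and HOXC10, at 1145 ± 14.9, followed by HOXB9 at 451 ± 8.03, HOXC13 at 233 ± 15.3 and HOXA13 at 209.8 ± 8.51 (SD, n = 3). The libraries of HOXC13 and HOXA13 overlapped, whereas the first 3 genes of the order were apart from their neighbors. In NRF2null-KYSE70 the order began with HOXB7 at 1016 ± 39.7 per kilobase, HOXC10 at 773 ± 12.04, HOXB9 at 767 ± 40.9, HOXC13 at 300.1 ± 19.3 and HOXB13 at 167 ± 6.58. By the length of the canonical transcript instead, HOXB6 came before HOXB13 in this line, at means of 170 and 167 per kilobase. HOXC10 and HOXB9 now overlapped, and HOXA13, at 133 ± 13.4 per kilobase, overlapped HOXA5. HOXB7, HOXC10 and HOXB9 made up between 55.4% and 57.1% of all HOX normalized counts in each of the 6 libraries.

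**Figure D1:**
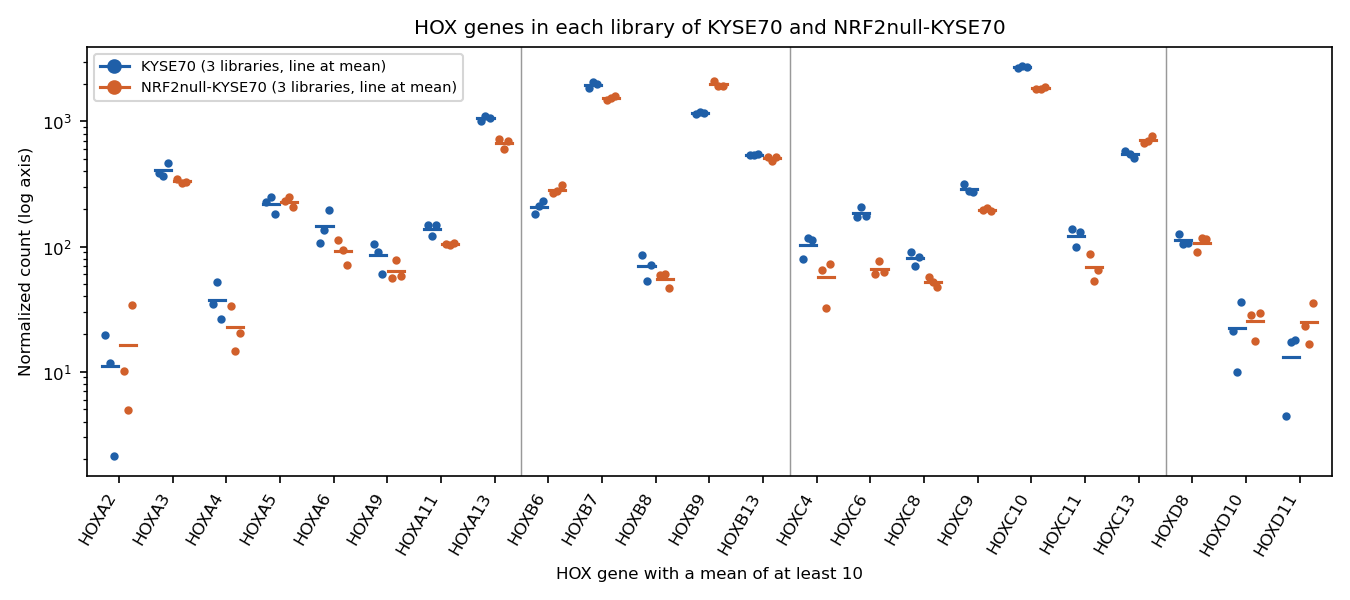
Normalized count (log axis) of 23 of the 24 HOX genes with a mean of at least 10, with points for the 3 libraries of KYSE70 (blue) and of NRF2null-KYSE70 (orange) and a line at each mean; vertical lines separate the clusters. HOXB9 and HOXC13 lie higher in every NRF2null-KYSE70 library, and HOXA13, HOXB7 and HOXC10 lie lower in every one.

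Across the tested members, HOXC6 was lower in NRF2null-KYSE70 beyond both limits of the test (limma, adjusted p below 0.05 together with a log2 difference of 1 or more in size). In all 2 of 24 members were called, against 14.7% of all 15994 tested genes, with 7.23% higher and 7.43% lower. By the adjusted p alone 13 of 24 passed, against 57.6% of all genes, with 4 higher (29.3% of all) and 9 lower (28.3% of all). The libraries lay apart, without overlap, for 15 of 24 members, 4 higher and 11 lower, against 63.4% of all genes, 32.1% higher and 31.3% lower. The median log2 fold change, here always NRF2null-KYSE70 over KYSE70, was −0.33 over the 24 members and −0.01 over all tested genes, and the median absolute value was 0.52 against 0.36. The members' counts by the adjusted p alone and by lack of overlap were thus near the background over both directions. The count of called members was 2 by edgeR and 2 by DESeq2 as well.

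**Figure D2:**
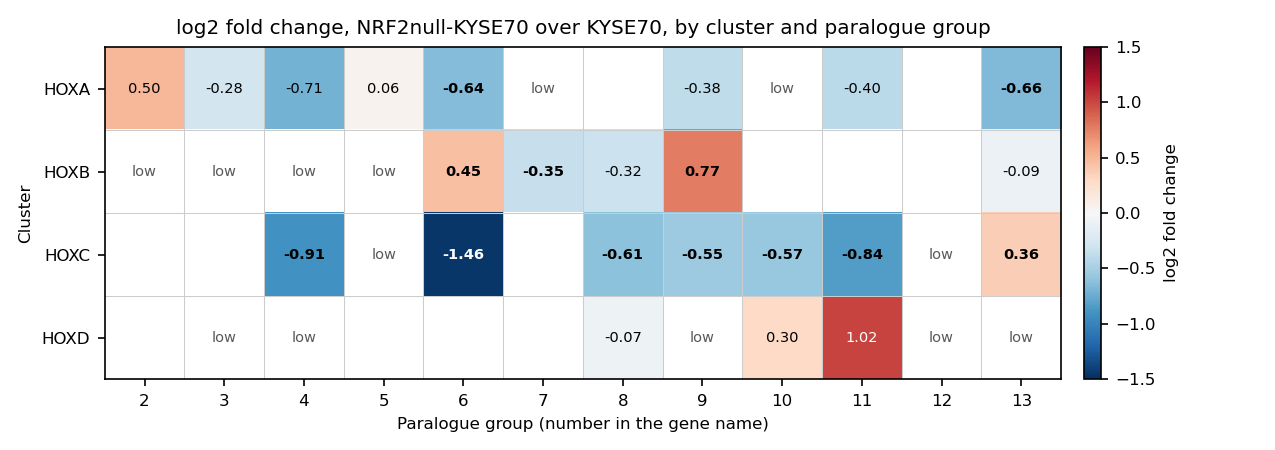
Grid of log2 fold changes (NRF2null-KYSE70 over KYSE70, log2(normalized count + 1) scale) with clusters as rows and the numbers 2 to 13 in the gene name as columns; bold values have an adjusted p under 0.05 (limma), "low" marks a member with a mean below 10, and empty cells hold no gene. The lowest value is −1.46 for HOXC6, and 6 of 7 values in the HOXC row are negative.

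HOXA13, the most posterior HOXA gene, which patterns the digits, hindgut and genital tract, was lower in the clone (ENSG00000106031, hg38 chr7:27193503-27200091, minus strand). Its normalized counts were 1017, 1101 and 1073 in KYSE70 and 727, 598 and 699.8 in NRF2null-KYSE70, with no overlap. The mean fell from 1064 ± 43.2 to 675 ± 68.0 (SD, n = 3), or to 63.5%, and the log2 difference was −0.66 (SE 0.0903, limma, adjusted p = 4.11e-05). This passed the adjusted p but not the fold limit.

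HOXA6, a thoracic-level gene, also passed the adjusted p alone, at −0.64 (limma, adjusted p = 0.0419). Its normalized counts of 108, 136 and 196 in KYSE70 and 113, 93.2 and 70.8 in NRF2null-KYSE70 overlapped, and 39.3% of its exon bases are shared with an opposite-strand gene, HOXA-AS3. HOXA6 did not pass in 4 of the 6 fits with a library left out (without KYSE70 library 2 or 3, or NRF2null-KYSE70 library 2 or 3). HOXA3, which acts in pharyngeal arch and thymus development, had a log2 fold change of −0.28 (adjusted p = 0.0645), and HOXA11, a gene of forearm and kidney development, had −0.40 (adjusted p = 0.0722). All libraries of HOXA3 and HOXA11 were lower in NRF2null-KYSE70, yet neither passed the test. HOXA2, HOXA4, HOXA5 and HOXA9 overlapped between the lines. Their log2 fold changes were 0.50 for HOXA2, −0.71 for HOXA4, 0.06 for HOXA5 (95% interval −0.28 to 0.39) and −0.38 for HOXA9.

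In the HOXB cluster, neighboring genes differed in direction. HOXB9, a posterior gene of its block (ENSG00000170689, chr17:48621156-48626358, minus strand), had normalized counts of 1142, 1182 and 1172 in KYSE70 and 2106, 1920.0 and 1925 in NRF2null-KYSE70. It rose from 1165 ± 20.8 to 1983 ± 106 (SD, n = 3), with no overlap and a log2 difference of 0.77 (SE 0.0652, limma, adjusted p = 5.79e-07). HOXB7, a trunk-level gene whose annotated span encloses HOXB9 and HOXB8 (ENSG00000260027, chr17:48607232-48633572, minus strand), had counts of 1834, 2069 and 1992 in KYSE70 and 1487, 1539.5 and 1607 in NRF2null-KYSE70. It fell from 1965 ± 119.9 to 1545 ± 60.4, also with no overlap, at −0.35 (SE 0.0668, limma, adjusted p = 6.74e-04). HOXB7 was thus the higher of this pair in KYSE70 and HOXB9 the higher in NRF2null-KYSE70 by normalized count, although per kilobase HOXB7 was the higher in both.

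HOXB6 was also raised, from 208 ± 25.4 to 284 ± 21.3, with all libraries higher in NRF2null-KYSE70 (log2 fold change 0.45, limma, adjusted p = 0.015). HOXB8 did not pass, at −0.32 (95% interval −0.89 to 0.25), and its libraries overlapped. HOXB13, the far outlying posterior gene known for its role in prostate and distal colon, had counts of 534, 537 and 545 in KYSE70 and 517, 484 and 521 in NRF2null-KYSE70. Although all of its libraries were lower in NRF2null-KYSE70, the difference was −0.09 on the log2 scale (95% interval −0.28 to 0.11, limma, adjusted p = 0.434). No HOXB gene was called by limma, edgeR or DESeq2, against 14.7% of all genes by limma. Of the 5 tested, 3 had an unadjusted p under 0.05 and 3 passed the adjusted p, against 57.6% of all genes.

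The HOXC cluster moved as a block, with an exception at its posterior end. All 7 tested HOXC genes passed the adjusted p and had no overlap between the lines, against 57.6% and 63.4% of all genes, 6 lower and 1 higher. HOXC6, a thoracic-level gene (ENSG00000197757, chr12:53990624-54030823, plus strand), had normalized counts of 172, 208 and 176 in KYSE70 and 60.9, 76.5 and 62.8 in NRF2null-KYSE70. Every NRF2null-KYSE70 library lay far below every KYSE70 library. The means were 185 ± 19.7 and 66.7 ± 8.52 (SD, n = 3), so that 36.0% of the KYSE70 level remained, and the log2 difference was −1.46 (SE 0.191, limma, adjusted p = 2.73e-05). On the same strand, 16.1% of the exon bases of HOXC6 are shared with HOXC4, HOXC9 and a read-through gene, so the division of reads among these genes is uncertain.

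HOXC10, which specifies lumbar motor neurons and had the highest mean count of all members (ENSG00000180818, chr12:53985065-53990279, plus strand), had counts of 2677, 2747 and 2722 in KYSE70 and 1821, 1814 and 1867 in NRF2null-KYSE70. The groups were well apart, at 2715 ± 35.3 and 1834 ± 28.6, or 67.5% of the KYSE70 level. On the log2 scale HOXC10 differed by −0.57 (SE 0.0541, limma, adjusted p = 1.70e-06).

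The other lower HOXC genes were HOXC4 at −0.91 (103 ± 20.8 to 56.8 ± 21.5, adjusted p = 0.0238), HOXC8 at −0.61 (80.6 ± 10.1 to 52.2 ± 4.43, adjusted p = 0.0394), HOXC9 at −0.55 (289 ± 25.5 to 197 ± 5.18, adjusted p = 0.00322) and HOXC11 at −0.84 (122 ± 20.4 to 68.4 ± 17.4, adjusted p = 0.00908). HOXC8 was close to the limit: it did not pass by edgeR (adjusted p = 0.0508), without a filter (0.108), after quantile normalization (0.0953) or with any library but KYSE70 library 2 left out. HOXC4 did not pass without the mean-variance trend (0.0785), or without KYSE70 library 2 or 3 or NRF2null-KYSE70 library 2. HOXC8 and HOXC9 act at the thoracic level and HOXC11 at the lumbar and sacral level. HOXC13, which drives keratin genes in hair and nail (ENSG00000123364, chr12:53938831-53946544, plus strand), went against the rest. Its counts were 583, 552 and 511 in KYSE70 and 670.4, 693 and 758 in NRF2null-KYSE70. It rose from 549 ± 36.1 to 707 ± 45.4, with no overlap, at 0.36 (SE 0.0934, limma, adjusted p = 0.00481).

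Many genes around the HOXC cluster were lower as well, but not CALCOCO1, the nearest coding gene in the list on the HOXC13 side, at −0.02 (limma, adjusted p = 0.875). On chromosome arm 12q the median log2 fold change of tested genes was −0.38. For the 40 nearest coding genes outside the cluster it was between −0.55 and −0.53 depending on the HOXC gene at the center, against 0.21 around HOXA, 0.08 around HOXB and −0.02 around HOXD. With the 12q median subtracted (arm-centring), HOXC4 was at −0.53, HOXC8 at −0.23, HOXC9 at −0.17 and HOXC11 at −0.46. None of these passed (limma, adjusted p = 0.158, 0.396, 0.277 and 0.108). HOXC6 at −1.08, HOXC10 at −0.19 and HOXC13 at 0.74 still passed (limma, adjusted p = 2.66e-04, 0.00885 and 1.71e-05). The local median, unlike the arm median, was an alternative chosen after seeing the data. With the local median subtracted, HOXC9 was at 0.00, HOXC10 at −0.02 and HOXC8 at −0.07, with adjusted p-values of 0.999, 0.778 and 0.819 (limma). HOXC4 and HOXC11 were then at −0.36 and −0.30 and did not pass either (adjusted p = 0.33 and 0.293), whereas HOXC6 remained lower at −0.91 (adjusted p = 8.35e-04) and HOXC13 was at 0.89 (adjusted p = 3.10e-06). In the same setting HOXA13 was at −0.87 (adjusted p = 5.88e-06), HOXA3 at −0.49 (adjusted p = 0.005) and HOXA11 at −0.61 (adjusted p = 0.0134). Whether copy number differed between the lines was not measured here.

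**Figure D3:**
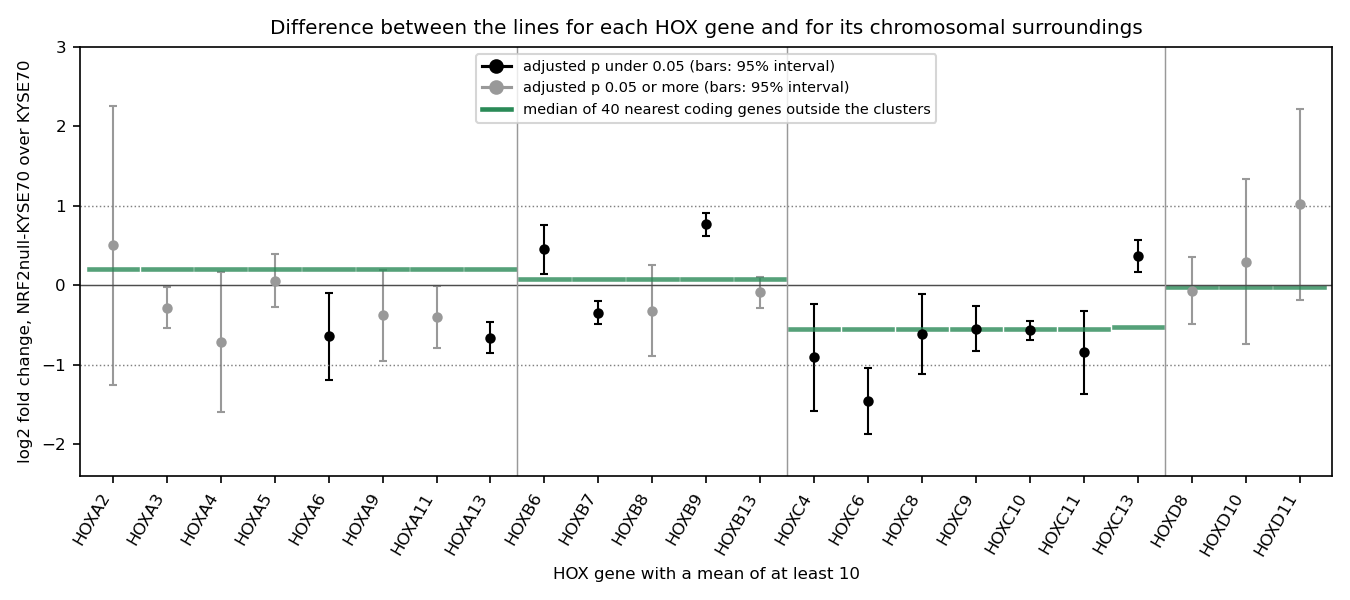
log2 fold change (NRF2null-KYSE70 over KYSE70) of 23 of the 24 tested HOX genes with 95% intervals; black points have an adjusted p under 0.05 (limma), grey points do not, and green bars give the median of the 40 nearest coding genes outside the clusters. The green bar lies near −0.55 under HOXC, where HOXC8, HOXC9 and HOXC10 sit on it, HOXC6 lies below it and HOXC13 above it.

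HOXD genes were low and did not differ by the test. HOXD8 had counts of 127, 104 and 107 in KYSE70 and 91.3, 117 and 114 in NRF2null-KYSE70, with a log2 fold change of −0.07 (95% interval −0.49 to 0.35). HOXD10 was at 0.30 (95% interval −0.74 to 1.34), and HOXD11, a partner of HOXA11 in forearm development, was at 1.02 (95% interval −0.19 to 2.22, limma, adjusted p = 0.136). The libraries of all 3 genes overlapped, and the wide intervals of HOXD10 and HOXD11 rest on 69 and 72 reads, and on 41 and 71 reads, in KYSE70 and NRF2null-KYSE70. No HOXD gene was called by limma, edgeR or DESeq2, against 14.7% of all genes by limma, and 0 of 3 had an unadjusted p under 0.05.

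Summed over each cluster, HOXC took a lower and HOXB a higher share of the HOX counts in the clone. The HOXB sum itself was higher only with HOXB9 included. The HOXC sums were 4056, 4073 and 4006 in KYSE70 and 2957, 2924 and 3066 in NRF2null-KYSE70, or 73.7% of the KYSE70 mean. The HOXB sums were 3778, 4061 and 4019 in KYSE70 and 4441, 4292 and 4409 in NRF2null-KYSE70, or 111%. Neither cluster overlapped between the lines. Without HOXB9 the HOXB sum went from 2787 ± 132 to 2397 ± 77.7 (SD, n = 3), or 86.0% of the KYSE70 mean. The share of HOXC in all HOX counts went from 38.8% ± 0.896 to 31.6% ± 0.512 and that of HOXB from 37.9% ± 0.767 to 46.5% ± 0.261 (SD, n = 3).

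HOXA took 21.8% ± 0.426 of the HOX counts in KYSE70 and 20.1% ± 0.371 in NRF2null-KYSE70, and its sum was 83.3% of the KYSE70 mean, with no overlap. HOXD took 1.55% ± 0.140 and 1.78% ± 0.123, with overlap. All HOX genes together summed to 10437 ± 198 and 9427 ± 163, or 90.3%. For the total and for HOXA, HOXB and HOXC, the two-sided exact permutation test gave p = 0.1 each, the smallest that 3 against 3 libraries allow, and for HOXD p = 0.6.

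By paralogue group, the posterior genes numbered 9 to 13 held most of the HOX counts in both lines. Their share of the summed HOX counts was 64.4% in KYSE70 and 65.8% in NRF2null-KYSE70, the genes numbered 5 to 8 made up 28.7% and 26.0%, and those numbered 1 to 4 made up 6.93% and 8.25%. By the adjusted p, 2 posterior genes were higher and 4 lower of 11 tested, and 1 middle gene was higher and 4 lower of 8. Over all tested genes 57.6% passed, 29.3% higher and 28.3% lower. Paralogues differed in direction in groups 6, 9 and 13. In group 6, HOXB6 rose while HOXA6 and HOXC6 fell. In group 9, HOXB9 rose while HOXC9 fell and HOXA9 did not pass. In group 13, HOXA13 fell, HOXC13 rose and HOXB13 did not pass.

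Several non-coding genes of the clusters were lower in the clone, and the 13 tested had a median log2 fold change of −0.48. Of 37 neighboring genes in the list 26 were tested and 5 were called, all 5 lower and all 5 non-coding, against 7.43% lower of all genes. HAGLROS, a HOXD-cluster RNA on the strand opposite to HAGLR, had counts of 42.7, 71.7 and 66.4 in KYSE70 and 0 in each NRF2null-KYSE70 library. With 190 reads in KYSE70 and none in NRF2null-KYSE70, it was at least 19.2-fold lower against a floor of 3 reads per library. HAGLR, its partner in the annotation, was at −0.48 and did not pass (adjusted p = 0.103), and HOXD1 and HOXD3 next to it had 4 and 0 reads in KYSE70.

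HOTAIR, the HOXC antisense RNA known for its link to Polycomb repressive complex, had counts of 215, 173 and 169.8 in KYSE70 and 87.2, 84.3 and 81.1 in NRF2null-KYSE70. Its groups were clearly apart, with a log2 difference of −1.13 (SE 0.178, limma, adjusted p = 1.37e-04). HOXC-AS2 was at −1.18 (94.9 ± 11.8 to 41.5 ± 6.33, adjusted p = 0.00114) and HOXC-AS3 at −1.07 (85.6 ± 2.30 to 42.1 ± 13.6, adjusted p = 0.00666). HOTTIP, transcribed from the posterior tip of the HOXA cluster beside HOXA13, was at −1.14 (90.6 ± 5.01 to 42.7 ± 18.4, adjusted p = 0.00513). After subtraction of the local median, HAGLROS and HOTTIP were still called, the latter at −1.35. The 3 HOXC antisense genes fell under the fold limit, at −0.58 for HOTAIR, −0.63 for HOXC-AS2 and −0.52 for HOXC-AS3. HOTAIR and HOXC-AS2 still passed the adjusted p (limma, 0.0101 and 0.0322), whereas HOXC-AS3 did not (0.128).

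Not every antisense gene followed its coding partner. HOXA11-AS rose from 69.8 ± 13.5 to 127 ± 23.4, with no overlap, at 0.86 (limma, adjusted p = 0.00644), while HOXA11 had −0.40. They share 27.2% of the exon bases of HOXA11 on opposite strands. HOXC13-AS was at 0.30 beside HOXC13 at 0.36 and did not pass (adjusted p = 0.138). HOXA10-AS, at 497 ± 51.5 and 479 ± 6.15, did not pass (log2 fold change −0.05, 95% interval −0.28 to 0.18), although the coding gene HOXA10 had 7 and 9 reads.

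**Figure D4:**
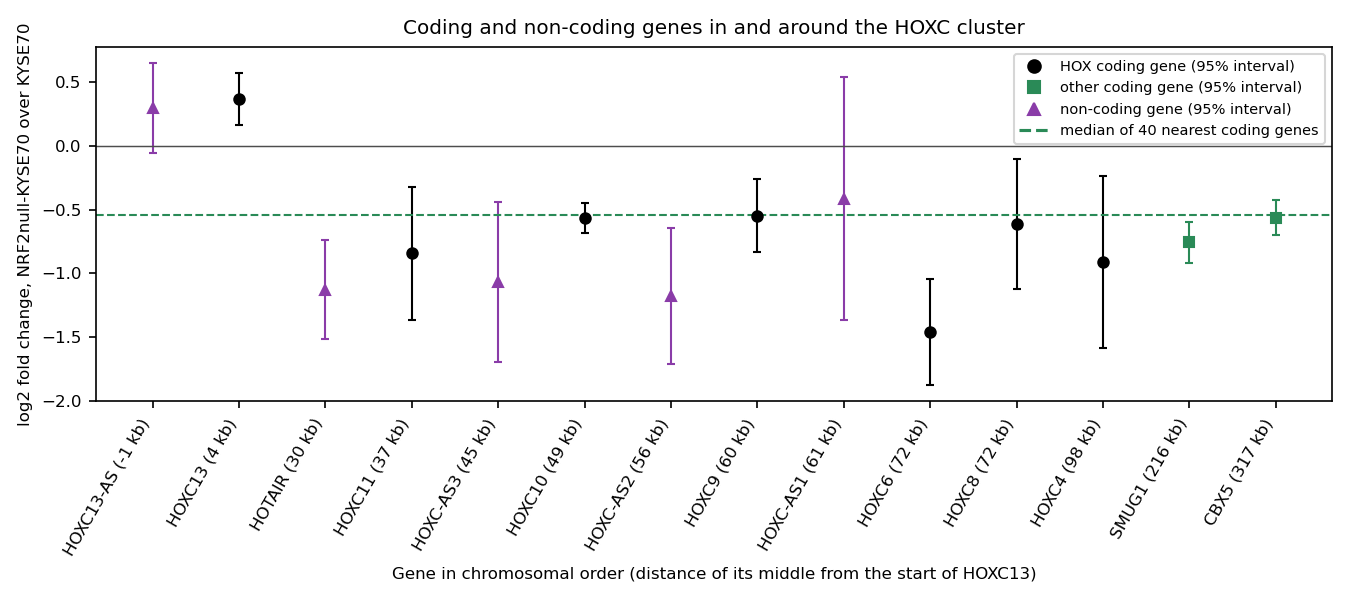
log2 fold change (NRF2null-KYSE70 over KYSE70, points with 95% intervals) of tested genes in and around the HOXC cluster in chromosomal order, with the distance of each gene's middle from the start of HOXC13 in kilobases; circles are HOX genes, triangles non-coding genes, squares other coding genes and the dashed line the median of the 40 nearest coding genes. HOXC13 lies above 0 and HOXC13-AS has an interval that includes 0. The HOX genes from HOXC11 to HOXC4, SMUG1 and CBX5 lie below 0. Of the listed genes, CALCOCO1 and ATP5MC2 on the HOXC13 side and HNRNPA1 beyond CBX5 lie outside the stretch drawn.

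Among 13 tested coding neighbors none was called by limma, edgeR or DESeq2, against 14.7% of all genes by limma. Of the 13, 10 had an unadjusted p under 0.05. By the adjusted p 10 passed, 5 higher and 5 lower, against 57.6% of all genes. The largest differences flanked HOXC: ATP5MC2, a subunit of mitochondrial ATP synthase, was at −0.91, and SMUG1, a uracil-DNA glycosylase, was at −0.76. CBX5, which encodes the heterochromatin protein HP1 alpha, lay on the same side at −0.56. Next to HOXA, SKAP2 was at 0.62, and next to HOXB, CALCOCO2 was at 0.56, both with an adjusted p under 0.05.

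No TALE cofactor reached the fold limit with the adjusted p. Of 9 tested none was called by limma, edgeR or DESeq2, against 14.7% of all genes by limma. An unadjusted p under 0.05 was found for 4, and 3 passed the adjusted p, against 57.6% of all genes. MEIS1, which forms complexes with HOX and PBX proteins, had counts of 823, 844 and 763 in KYSE70 and 502, 531 and 498 in NRF2null-KYSE70, with no overlap, at −0.66 (limma, adjusted p = 2.78e-05). PBX3 was at 0.21 (adjusted p = 0.0329). PKNOX2 had the largest absolute value, −0.92, from means of 14.9 and 7.46, and did not pass (adjusted p = 0.179).

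Of 38 chromatin regulator genes tested, mostly of Polycomb and Trithorax complexes, 2 were called, against 14.7% of all genes. CBX7, a subunit of Polycomb repressive complex that reads methylated histone H3, had counts of 659.9, 703 and 749.7 in KYSE70 and 2279, 1905 and 1993 in NRF2null-KYSE70, or 1.54 higher on the log2 scale (SE 0.0838, limma, adjusted p = 8.99e-09). MLLT3, a member of the super elongation complex and a fusion partner of KMT2A in leukemia, had 1993, 2032 and 1963 in KYSE70 and 811, 668 and 898 in NRF2null-KYSE70, at −1.34 (SE 0.096, limma, adjusted p = 1.13e-07). The lines did not overlap for either gene. By the adjusted p alone 30 of 38 passed, against 57.6% of all genes, 17 higher and 13 lower, EZH2 being at −0.30 and KDM6B at 0.35.

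Retinoid genes, whose product retinoic acid activates anterior HOX genes in embryos, had a median absolute log2 fold change of 0.76 over 14 tested genes against 0.52 over the HOX genes. Of 14 tested genes of retinoid metabolism, transport and reception 5 were called, against 14.7% of all genes, 4 higher (7.23% of all) and 1 lower (7.43% of all), and the 3 CDX genes, which regulate HOX genes in the gut, were at 0. ALDH1A3, an enzyme that makes retinoic acid, had counts of 13718, 12917 and 13325 in KYSE70 and 88199, 82824 and 79160.4 in NRF2null-KYSE70. All NRF2null-KYSE70 libraries were far higher, with a log2 difference of 2.65 (SE 0.0507, limma, adjusted p = 7.99e-13).

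ALDH1A1 and ALDH1A2, which catalyze the same step, were at 2.47 (98.6 ± 18.4 to 547 ± 56.4, adjusted p = 5.80e-08) and 1.17 (10.4 ± 2.79 to 24.3 ± 2.71, adjusted p = 0.0359). ALDH1A2, with 33 and 70 reads, was at 0.84 after arm-centring and 0.66 after local centring and was then not called. It also did not pass without a filter (limma, adjusted p = 0.108) or in 4 of the 6 fits with a library left out. STRA6, a membrane receptor for retinol uptake, was at 2.36 (15.6 ± 8.47 to 76.3 ± 16.9, adjusted p = 5.14e-04). RARB, a retinoic acid receptor, went the other way, with counts of 293, 290.3 and 372 in KYSE70 and 18.3, 17.7 and 29.7 in NRF2null-KYSE70. Its groups were widely apart, at −3.83 (SE 0.248, limma, adjusted p = 4.48e-08). RARG was at −0.90 and CYP26A1, which degrades retinoic acid, at 0.63, both past the adjusted p but under the fold limit. Retinoic acid itself was not measured.

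**Figure D5:**
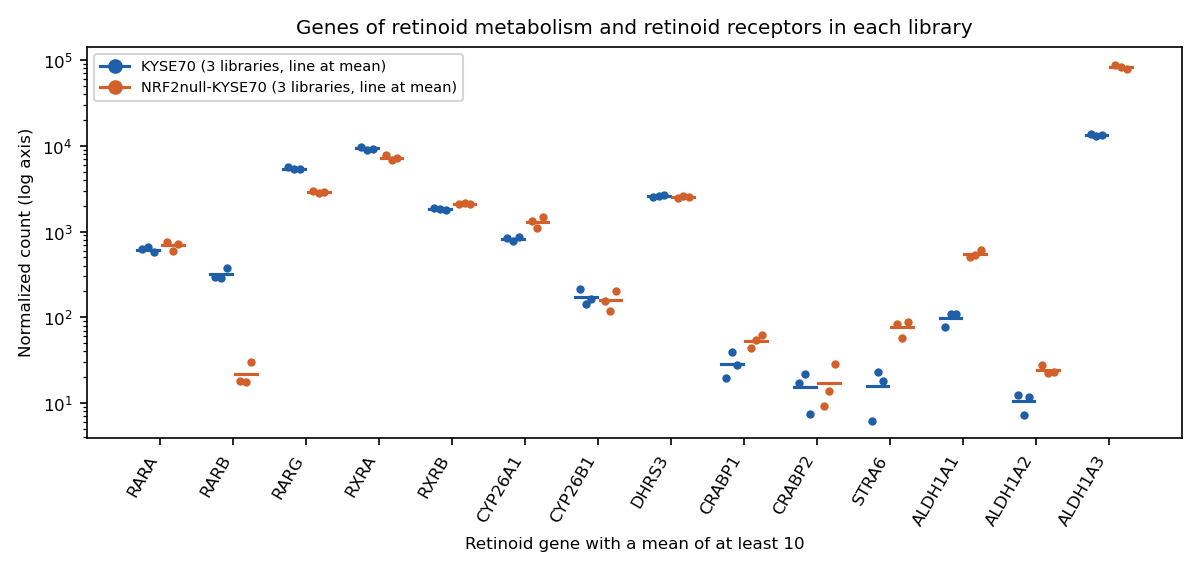
Normalized count (log axis) of the 14 tested retinoid genes, with points for the 3 libraries of KYSE70 (blue) and of NRF2null-KYSE70 (orange) and a line at each mean. ALDH1A3, ALDH1A1, ALDH1A2 and STRA6 lie higher and RARB lies lower in every NRF2null-KYSE70 library.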

How the data were processed

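RNA-seq of 3 KYSE70 and 3 NRF2null-KYSE70 libraries was used. The authors prepared libraries with a NEBNext Ultra kit, aligned reads with STAR to hg38, counted them with featureCounts (1.5.1 in the submitters' processing notes) and normalized the counts with DESeq2. No source used here gives the strand setting. What the authors deposited is a signal, normalized counts, in which each library's read counts are divided by its size factor. Whole reads were recovered for 100% of values (tolerance 0.1 read), with 1 read worth 0.889 to 1.14. Table columns carried the line and no replicate number.

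Differences were tested with limma 3.58.1 (mean-variance trend, R 4.3.3) on log2(normalized count + 1) over the 15994 genes with a mean of at least 10, with Benjamini-Hochberg adjustment, and called where the adjusted p was below 0.05 and the log2 fold change 1 or more in size. The log2(value + 1) scale understates changes of low genes. edgeR 4.0.16 and DESeq2 1.42.0 on recovered reads were alternatives. The test was checked on simulated counts. Counting intervals and floors (3 reads per library) cover counting error only. Positions and exon lengths came from GENCODE v44 (hg38), in which all 39 members were found, and promoter windows from RefSeq (GRCh38.p14).

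Members and gene lists were chosen with earlier results of these data known. The rule named the members, with values per library for called members and the most abundant ones, and, from each list, called genes or, with none called, the 2 largest differences. Other genes given for position or pathway were chosen after their values were seen. The values of some genes are not reported here.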

Additional observations from a re-analysis of the deposited data

How the results depend on the processing

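No paired analysis was possible because the columns of a line cannot be matched to numbered replicates. With 3 libraries per line and 1 clone, and with few reads for low members such as HOXA2 and HOXD10, differences were not detectable at this depth below the widths of the intervals given. Of 21 alternatives (other pseudocounts, filters, scalings, tools, centrings, thresholds and left-out libraries), 16 left the count of called HOX genes within 1.5 times of 2. It was 0 after local centring, 0 when tested against a log2 fold change of 1 (treat), and 13 by the adjusted p alone. HOXC6 lost its call in the first of these at −0.91. With a library left out it ranged from 1 to 4: it was 1 without KYSE70 library 2, and HOXC4 and HOXC11 were added without NRF2null-KYSE70 library 1. HOXC4 was also called without KYSE70 library 1 and without NRF2null-KYSE70 library 3. Scaling to equal totals moved the median of all genes by −0.08 and left all cluster sums of HOXA, HOXB and HOXC on the same side (HOXB at 105% in place of 111%), while the HOXD sum went from 104% to 98.4%.

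Among members that did not pass, HOXA5 turned sign under total scaling (−0.017), arm-centring (−0.0070) and local centring (−0.15), and HOXD8 under quantile normalization (0.036). Leaving out a library gave HOXA5 from −0.068 to 0.15, HOXD8 from −0.14 to 0.040, HOXA2 from −0.29 to 1.08 and HOXD10 from −0.16 to 0.71. The cause was not tested. By the adjusted p alone, the counts were 9206 of all genes, 3 TALE cofactors, 30 chromatin regulators, 10 retinoid genes and 17 neighbors. Treat gave 970 of all genes, 3 retinoid genes and 1 neighbor. A filter at a mean of 50 gave 1511 of all genes and 3 retinoid genes, since fewer genes were tested. Neighbors numbered 2 under arm-centring and 2 under local centring. Retinoid genes numbered 4 under arm-centring and 4 under local centring, in which ALDH1A2 was lost. Leaving out a library gave 2226 to 2337 of all genes.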
